A study of Mus musculus with 15 samples.

Results

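The genes described here mark oligodendrocyte precursors and the early steps of the oligodendrocyte lineage in brain RNA of adult mice. They are 10 genes (Pdgfra, Cspg4, Vcan, Gpr17, Olig1, Olig2, Neu4, C1ql1, Enpp6 and Bcas1) chosen by name as precursor and newly formed oligodendrocyte genes, out of 27179 gene IDs measured. All 10 were found and all 10 passed the filter on low counts, which left 17151 genes to test. The samples were labelled as brain bulk tissue, taken from hemispheres, of mice aged 12 months. The transgenic group (TG) was homozygous for human α-synuclein driven by the PLP promoter and the wild-type group (WT) was non-transgenic C57Bl/6. There were 4 WT male, 4 WT female, 3 TG male and 4 TG female libraries, matched for age and sex per the labels. The PLP promoter is active in oligodendrocytes, so the transgene is driven in the same lineage that these genes mark. The transgene's own RNA was not analysed here. Nothing in the labels says whether libraries share litters or cages, so the p-values reflect only variation among these samples, which may be technical.

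Oligodendrocyte precursors are dividing glial cells spread through the adult brain. They carry the growth factor receptor PDGFRα and the proteoglycan NG2, and they pass through a short premyelinating state before they mature. Mature oligodendrocytes wrap axons in myelin and make large amounts of myelin proteins such as MBP and PLP. Precursors are found in grey and white matter alike, while mature oligodendrocytes are densest in white-matter tracts, as in the brainstem.

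The libraries differed in the brain regions they held. Clustering on region marker genes, none of them among the 10, gave 4 classes, named here by their markers and formed from these data. The hindbrain-marker class held 4 libraries (WT male 3, WT female 3, TG female 1 and TG female 4), with Hoxa5 at 69.3 to 121 CPM (counts scaled to a common library size after TMM adjustment). The cortex-marker class held 3 (WT male 4, WT female 2 and TG male 4), with Neurod6 at 131 to 171 CPM. TG female 3 alone made up the cerebellum-marker class, with Gabra6 at 701 CPM. The olfactory-marker class held the remaining 7 (4 WT and 3 TG), with Omp at 42.2 to 159 CPM. Its libraries were not uniform in region content. The cortex marker Neurod6 was at 55.8 CPM in WT male 2 and 20.3 CPM in WT male 1, and at 4.35 to 15.5 CPM in the rest of this class. No TG male was in the hindbrain-marker class, so sex, genotype and region were not balanced. Library totals ran from 15170772 to 35850998 counts. The lowest count of any of the 10 genes in any library was 25, for Enpp6 in TG male 4, against 3 counts as the limit of detection (0.0834 to 0.194 CPM).

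The windows before 2 start sites are shown first because their genes behaved differently in the pattern described below: Pdgfra differed little between hindbrain-marker and olfactory-marker libraries and Enpp6 differed several-fold. Each is the 250 bases before a RefSeq start (GRCm38.p6, plus strand), Pdgfra at chr5:75152001-75152250 and Enpp6 at chr8:46986637-46986886. Both windows lie within the gene spans given below, so each gene also has an annotated start further upstream. The bases just after the window were found in a GENCODE transcript of the gene for Enpp6 but not for Pdgfra. Capitals mark matches, on either strand, to the E-box CANNTG, the letters that basic helix-loop-helix factors such as OLIG1 and OLIG2 read, or to ACAAAG and ACAATG, letters that SOX factors read.
Pdgfra: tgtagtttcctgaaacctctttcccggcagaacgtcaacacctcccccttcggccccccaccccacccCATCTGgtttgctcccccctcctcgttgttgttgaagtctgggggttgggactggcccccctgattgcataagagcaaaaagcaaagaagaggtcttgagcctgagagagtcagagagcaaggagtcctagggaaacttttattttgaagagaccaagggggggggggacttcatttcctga
Enpp6: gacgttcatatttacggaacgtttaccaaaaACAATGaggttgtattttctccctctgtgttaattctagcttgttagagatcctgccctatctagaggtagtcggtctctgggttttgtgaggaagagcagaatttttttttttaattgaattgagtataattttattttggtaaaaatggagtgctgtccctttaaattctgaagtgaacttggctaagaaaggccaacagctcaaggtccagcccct
The Pdgfra window held 1 E-box match and 0 SOX matches, and the Enpp6 window held 0 E-box matches and 1 SOX match. Of 32851 RefSeq windows of this length, 66.2% held an E-box match and 25.2% a SOX match, so both motifs are common. A match is a description of the letters and not a binding site. RefSeq windows were at hand for 6 of the 10 genes.

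By region, the 10 genes fell into a series that ran from no difference to nearly the difference of myelin. Hindbrain-marker libraries were compared with olfactory-marker libraries by the difference of mean log2 CPM, with no test, since the classes came from these data. For 6 of the 10 genes (Neu4, Olig1, Olig2, C1ql1, Enpp6 and Bcas1) every hindbrain-marker library lay above every olfactory-marker library. Over all tested genes that share was 24.8% in this direction. Pdgfra, Cspg4, Vcan and Gpr17 overlapped between these classes. Of 32 mature myelin genes 31 lay wholly higher, with a median of 5.91-fold, while the median over all tested genes was 0.01 on the log2 scale. In bulk tissue, a difference in the number of cells and a difference in RNA per cell cannot be told apart.

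**Figure D1:**
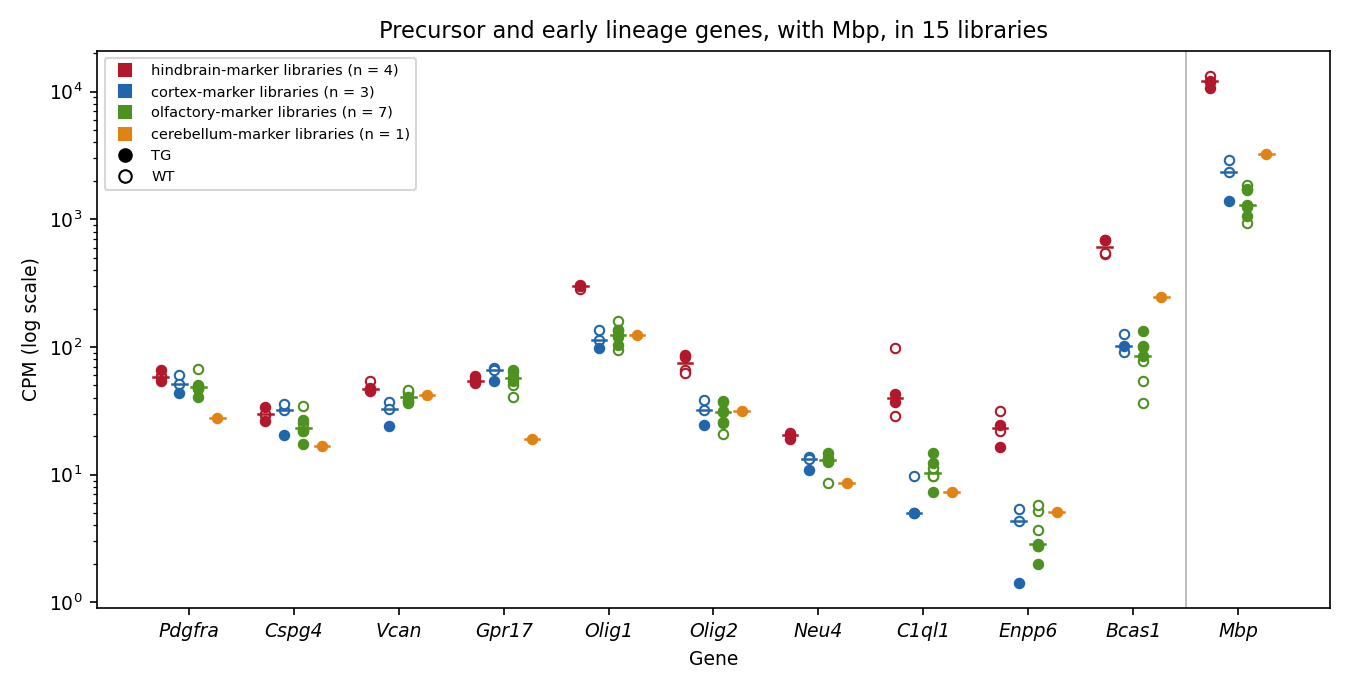
CPM on a log scale for each of the 10 genes and for Mbp, with 1 point per library, filled for TG and open for WT, coloured by library class, and a short line at the class median. Pdgfra, Cspg4, Vcan and Gpr17 lie at similar heights in the hindbrain-marker and olfactory-marker libraries, while Enpp6 and Bcas1 separate these classes as Mbp does.

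Pdgfra (chromosome 5, 75151322 to 75198206, GRCm38.p6) encodes the PDGF receptor α, which drives the division and survival of precursors. Its level was 66.5, 54.1, 57.9 and 59.2 CPM in the hindbrain-marker libraries TG female 1, TG female 4, WT female 3 and WT male 3. It ran from 40.9 to 67.7 CPM with a median of 48.4 in the 7 olfactory-marker libraries and was 51.0, 60.1 and 43.4 CPM in the cortex-marker libraries WT female 2, WT male 4 and TG male 4. All 4 hindbrain-marker values lay within the olfactory-marker range, and their mean was 1.19-fold higher. TG female 3, of the cerebellum-marker class, was the lowest of all 15 libraries at 27.9 CPM.

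Cspg4 (chromosome 9, 56865104 to 56899870) encodes the NG2 proteoglycan of precursors and is also made by pericytes. It lay at 26.2 to 33.9 CPM in hindbrain-marker, 17.4 to 34.4 CPM in olfactory-marker and 20.3 to 35.9 CPM in cortex-marker libraries. The hindbrain-marker mean was 1.24-fold that of the olfactory-marker libraries, with overlap. Pericytes were followed by 7 markers, whose summed level was 162.2 to 250.2 CPM in hindbrain-marker and 132.0 to 208.6 CPM in olfactory-marker libraries, with 4 of the 7 wholly higher and none at 0 in either class. The 7 fibroblast markers, which cover cells that can also make Pdgfra, summed to 122.5 to 377.6 CPM and 95.9 to 194.7 CPM in these classes, with 1 of the 7 wholly higher and none at 0. Their part in the Cspg4 and Pdgfra levels was not tested.

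Vcan (chromosome 13, 89655309 to 89743027) encodes versican, a matrix proteoglycan of precursors. Its level was 44.8 to 54.5 CPM in hindbrain-marker, 36.2 to 45.9 CPM in olfactory-marker and 24.2 to 37.0 CPM in cortex-marker libraries. Against the olfactory-marker class its mean was 1.18-fold higher and overlapped. Against the cortex-marker class it was 1.57-fold higher with no overlap, as were 29.8% of all tested genes in that direction.

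Gpr17 (chromosome 18, 31942999 to 31949890) encodes a receptor of late precursors and premyelinating cells that falls away as they mature. It was 52.9, 59.2, 55.9 and 52.4 CPM in the hindbrain-marker libraries TG female 1, TG female 4, WT female 3 and WT male 3. The olfactory-marker libraries ran from 40.3 to 65.9 CPM with a median of 57.6, and the cortex-marker libraries from 54.5 to 67.9 CPM. The hindbrain-marker mean was 0.998-fold that of the olfactory-marker class, beside 8.74-fold for Mbp in the same libraries. TG female 3 stood apart at 18.9 CPM, below the other 14 libraries. The cerebellum-marker class has no second library, so this value has no replicate check.

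Neu4 (chromosome 1, 94020493 to 94028334) encodes a sialidase of precursors and early oligodendrocytes. It lay at 19.1 to 21.3 CPM in hindbrain-marker libraries, which spread over a narrow range, and at 8.57 to 14.9 CPM in olfactory-marker libraries. The difference was 1.62-fold, the smallest of the 6 genes without overlap. The cortex-marker libraries, at 10.8 to 13.8 CPM, lay within the olfactory-marker range.

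Olig1 and Olig2 are neighbouring paralogs on chromosome 16 (Olig1 at 91269769 to 91271939, Olig2 at 91225550 to 91228677) that encode transcription factors made by precursors and mature cells alike. Olig1 was 304.3, 299.0, 299.3 and 285.3 CPM in the hindbrain-marker libraries TG female 1, TG female 4, WT female 3 and WT male 3, and 94.3 to 159.7 CPM with a median of 123.4 in olfactory-marker libraries. Olig2 was 62.8 to 86.6 CPM in the same 4 libraries, with both TG libraries above both WT libraries, and 20.9 to 37.5 CPM in olfactory-marker libraries. The differences were 2.41-fold for Olig1 and 2.51-fold for Olig2. Both genes lay between the precursor receptors and the myelin genes in size of difference.

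C1ql1 (chromosome 11, 102939264 to 102946716) encodes a secreted C1q-like protein made by precursors and also by neurons of the inferior olive in the hindbrain. It was 37.4, 42.7 and 28.8 CPM in TG female 1, TG female 4 and WT female 3, and 98.4 CPM in WT male 3, the highest of the 15. Olfactory-marker libraries held 7.25 to 14.8 CPM and cortex-marker libraries 5.03 to 9.82 CPM. The hindbrain-marker class was 4.34-fold the olfactory-marker class, a log2 difference of 2.12 that was 1.75 without WT male 3. Slc6a5, a glycine transporter gene of hindbrain neurons, was at 61.9 to 103 CPM in the same class and at most 9.49 CPM in the other 11 libraries. It does not measure inferior olive neurons, and the part of hindbrain neurons in the C1ql1 level was not tested.

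Enpp6 (chromosome 8, 46939197 to 47096762) encodes a choline-specific phosphodiesterase made as precursors begin to differentiate. Its level was 24.5, 16.5, 31.3 and 21.9 CPM in the hindbrain-marker libraries TG female 1, TG female 4, WT female 3 and WT male 3. It ran from 1.98 to 5.74 CPM in olfactory-marker libraries with a median of 2.86, and was 5.41, 4.32 and 1.43 CPM in the cortex-marker libraries WT female 2, WT male 4 and TG male 4. The hindbrain-marker class was 6.67-fold the olfactory-marker class, and its lowest library lay well above the highest elsewhere.

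Bcas1 (chromosome 2, 170343973 to 170427911) encodes a protein of premyelinating and early myelinating oligodendrocytes that is also found in myelin. It was 683.6, 693.8, 540.1 and 533.8 CPM in the hindbrain-marker libraries TG female 1, TG female 4, WT female 3 and WT male 3. Olfactory-marker libraries ran from 36.4 to 133.2 CPM with a median of 84.9, and cortex-marker libraries from 91.1 to 126.4 CPM. At 7.79-fold, its hindbrain-marker difference was close in size to those of Mog (7.18-fold) and Mobp (7.27-fold), components of compact or outer myelin. TG female 3 held 247.2 CPM, between the hindbrain-marker libraries and the rest.

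Per kilobase of exon, the order of the levels differed between classes. In the hindbrain-marker libraries Bcas1 (mean 162.3 CPM per kb) and Olig1 (137.4) led without overlap, followed by C1ql1 (35.2) and Olig2 (29.5), which overlapped, and then Gpr17 (10.6) and Pdgfra (5.93). Neu4 (4.39), Enpp6 (3.67), Vcan (3.35) and Cspg4 (2.50) came last, and Enpp6 overlapped its neighbours Neu4 and Vcan. In the olfactory-marker libraries Olig1 led at a mean of 57.8 CPM per kb, followed by Bcas1 at 22.2 and by Olig2 (11.8), Gpr17 (10.7) and C1ql1 (7.31), each overlapping the next. Pdgfra (5.0) followed and overlapped C1ql1, then came Vcan (2.84), Neu4 (2.73) and Cspg4 (2.05), which overlapped one another. Enpp6 was lowest at 0.556 CPM per kb, below every value of the other 9 genes in that class. Some of these lengths carry reads that cannot be assigned with certainty: Gpr17 lies within Lims2 on the opposite strand, antisense transcripts overlap Bcas1, Enpp6 and Vcan, a predicted gene overlaps C1ql1, and the sources used here do not give the strand setting of the counting.

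Between cortex-marker and olfactory-marker libraries 0 of the 10 genes separated the classes, where 37.8% of all tested genes did so in either direction. The largest differences were those of C1ql1, a log2 value of -0.73 (cortex-marker minus olfactory-marker), and of Bcas1 and Vcan, at 0.43 and -0.41. The myelin list had a median log2 difference of 0.57 there, with 2 of 32 genes wholly higher and 1 wholly lower, where 19.9% and 17.9% of all tested genes were.

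**Figure D2:**
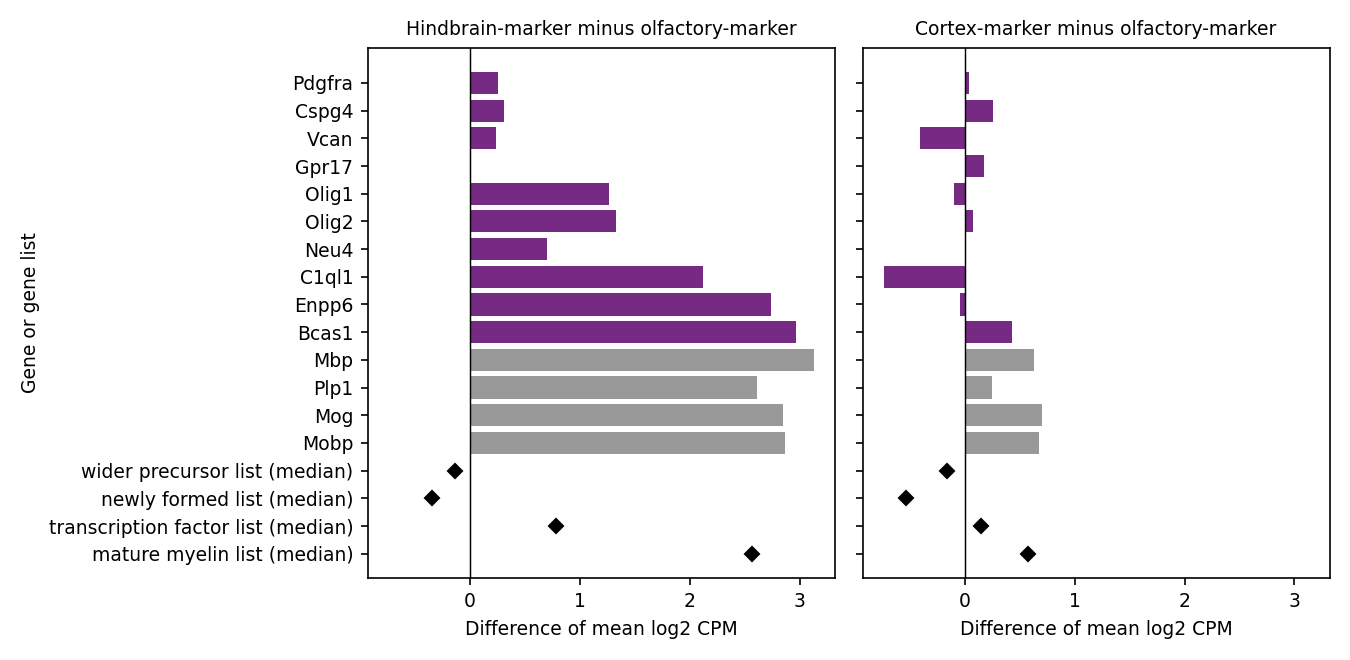
Differences of mean log2 CPM between library classes, with bars for the 10 genes (purple) and 4 myelin genes (grey) and diamonds for the medians of 4 gene lists. In the left panel the bars lengthen from Gpr17 (-0.00) to Bcas1 (2.96) and Mbp (3.13), while the medians of the wider precursor and newly formed lists lie below 0 and the myelin median lies at 2.56.

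Wider lists of the lineage gave the setting. Of 26 further precursor genes, 5 were wholly higher and 10 wholly lower in hindbrain-marker than in olfactory-marker libraries, with a median log2 difference of -0.13. Of 24 further genes of newly formed oligodendrocytes, 6 were wholly higher and 7 wholly lower, with a median of -0.34. Among 12 lineage transcription factors 7 were wholly higher and 2 wholly lower, with a median of 0.78. The lists share genes: Zfp488, Nkx2-2 and Tcf7l2 are in both the newly formed and the transcription factor lists. Nkx6-2 is in both the transcription factor and the mature myelin lists. Over all tested genes 24.8% were wholly higher and 25.7% wholly lower. Several genes of the first 2 lists, such as Sox4 and Sox11, are also made by neuroblasts and other neural progenitors. The 8 neuroblast markers summed to 898.9 to 1570.7 CPM in olfactory-marker and 646.3 to 818.2 CPM in hindbrain-marker libraries. Of these markers 6 were wholly lower and 2 wholly higher in hindbrain-marker libraries, and none was at 0 in either class. Their median log2 difference was -4.93 (0.0328-fold), much larger than the sums show. The part of neuroblasts in the medians of the wider lists was not tested.

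Division markers were low throughout. Of 12 proliferation genes, 8 passed the filter on low counts, and the 12 summed to 56.8 to 58.2 CPM in hindbrain-marker and 53.1 to 65.8 CPM in olfactory-marker libraries. Of the 8 tested, 1 was wholly higher and 0 were wholly lower in hindbrain-marker libraries. These genes mark dividing cells of any type.

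Set against the myelin genes of the same library, Pdgfra and Gpr17 lay lower in hindbrain-marker than in olfactory-marker libraries. That follows from their similar CPM in both classes, since the measure subtracts the larger myelin difference. Pdgfra lay 0.65 above the mean log2 CPM of the 32 myelin genes in olfactory-marker libraries (mean, range 0.31 to 0.95, n = 7) and 1.59 below it, at -1.59, in hindbrain-marker libraries (-1.79 to -1.39, n = 4). Gpr17 went from 0.81 (0.57 to 1.14) to -1.70 (-1.86 to -1.38), again with no overlap. The same relative measure for Enpp6 was -3.19 (-3.77 to -2.75) in olfactory-marker and -2.96 (-3.22 to -2.67) in hindbrain-marker libraries, which overlapped. The raw ratio of Mbp to Pdgfra was 181.1 to 228.5 in hindbrain-marker libraries, 116.6 in TG female 3, at most 57.3 in cortex-marker libraries and 20.1 to 35.5 in olfactory-marker libraries.

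Within classes some pairs of the genes varied together and others did not. After subtracting each class mean, over the 14 libraries of classes with more than 1 library, Pearson's r was 0.88 for Pdgfra and Cspg4, 0.91 for Gpr17 and Neu4, 0.87 for Olig1 and Olig2 and 0.85 for Gpr17 and Bcas1. It was 0.80 for Enpp6 and Vcan but -0.03 for Enpp6 and Bcas1, the 2 genes with the largest differences between hindbrain-marker and olfactory-marker libraries. For C1ql1 and the other 9 genes r ran from -0.06 to 0.30, and Bcas1 had r of 0.02 with Vcan and 0.17 with Pdgfra. These values are descriptions over libraries that share dissection, depth and genotype differences.

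The 3 genes whose class-centred levels were most like each member were taken among named genes of at least 1 CPM. For Gpr17 they were Gjc3 (r = 0.91), Neu4 (0.91) and Myrf (0.90), and for Enpp6 they were Micall1 (0.95), Anln (0.95) and Gjb1 (0.94), the last a gap junction gene of oligodendrocytes. Cspg4 was closest to Aifm2 (0.96), Pllp (0.96) and Trf (0.93), and Olig1 to Zfp521 (0.94), Zfp536 (0.94) and Nkx6-2 (0.93). Olig2 was closest to B3gnt9 (0.96), Tprn (0.92) and Opalin (0.92), Neu4 to Dock5 (0.94), Snx33 (0.93) and Gpr17 (0.91), and Bcas1 to Mcam (0.90), Csrp1 (0.90) and Cntn2 (0.89). For Pdgfra the list was Rftn1 (0.93), Myo5b (0.92) and Rab36 (0.91), for Vcan Adamts9 (0.93), Grik1 (0.90) and Agap1 (0.89), and for C1ql1 Rps20 (0.92), Ano2 (0.92) and Ctla2a (0.88). Each r is over 14 libraries and was picked as the highest over all such genes.

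Between TG and WT over all 15 libraries, 0 of the 10 genes passed the threshold, an adjusted p under 0.05. In the same fit 19 of 17151 genes passed, 0.111% of those tested. At an unadjusted p under 0.05 there were 314 genes (1.83%), none of them among the 10, and DESeq2, which called 0.233% of all genes, also called 0 of the 10. The sizes were small beside their errors for most members. The TG mean of Pdgfra was 47.2 ± 11.9 CPM (SD, n = 7) beside a WT mean of 55.1 ± 7.28 CPM (SD, n = 8), a log2 fold change of -0.22 ± 0.15 (SE). The means of Cspg4 were 23.3 ± 6.10 and 29.1 ± 5.14 CPM, a log2 fold change of -0.34 ± 0.16. The largest fold change was that of Enpp6, at -0.85 ± 0.72, and Bcas1 had 0.19 ± 0.73. For all 10 the adjusted p was 0.9999 by edgeR's quasi-likelihood test (Benjamini-Hochberg). Region content differed between the libraries of each group, and the errors of Olig1, Olig2, C1ql1, Enpp6 and Bcas1, the genes with the larger region differences, ran from 0.32 to 0.80.

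**Figure D3:**
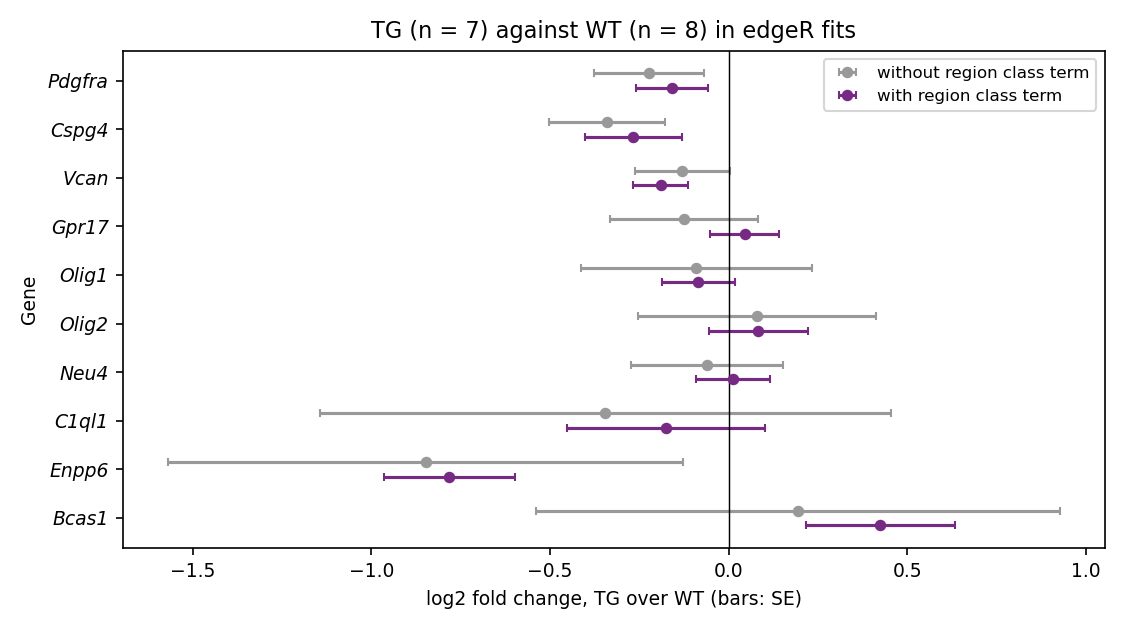
log2 fold change of TG (n = 7) over WT (n = 8) for each gene, with bars of 1 SE, in fits without (grey) and with (purple) a term for library class. The bars of Enpp6 shrink from 0.72 to 0.18 and those of Bcas1 from 0.73 to 0.21 with the term, and Enpp6 lies at -0.78 and Bcas1 at 0.42.

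With a term for library class the errors shrank and 0 of the 10 genes passed, while 85 of all tested genes did (0.496%). At an unadjusted p under 0.05 there were 1440 genes (8.4%), with 2 of them, Enpp6 and Vcan, among the 10. Enpp6 had a log2 fold change of -0.78 ± 0.18, with an adjusted p of 0.121 by edgeR's quasi-likelihood test (Benjamini-Hochberg). DESeq2 called Enpp6 lower in TG in the same design, with -0.80 ± 0.19 and an adjusted p of 0.00629, where it called 1.02% of all genes. With each library left out in turn Enpp6's adjusted p ran from 0.0781 to 0.326 in edgeR. Vcan had -0.19 ± 0.08, Cspg4 -0.27 ± 0.14 and Pdgfra -0.16 ± 0.10, and their adjusted p was 0.519, 0.648 and 0.722 by edgeR's quasi-likelihood test (Benjamini-Hochberg). Bcas1 had a positive value, 0.42 ± 0.21, with an adjusted p of 0.631 in the same edgeR fit. Olig1 (-0.08 ± 0.10), Olig2 (0.08 ± 0.14), Gpr17 (0.05 ± 0.10), Neu4 (0.01 ± 0.10) and C1ql1 (-0.17 ± 0.28) lay within about 1 SE of 0. TG female 3, alone in its class, does not bear on the genotype estimate with the class term.

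Within the olfactory-marker class Enpp6 was 2.74, 1.98 and 2.75 CPM in TG female 2, TG male 1 and TG male 3, and 5.19, 2.86, 5.74 and 3.71 CPM in WT male 1, WT male 2, WT female 1 and WT female 4. All 3 TG values lay below all 4 WT values, though the highest TG value lay close to WT male 2. The counts behind these values were 36 to 54 in TG and 62 to 95 in WT. The difference was 0.593-fold, and 2.95% of all tested genes were wholly lower in TG in this class. The libraries with the most Neurod6 in this class, WT male 2 (55.8 CPM) and WT male 1 (20.3 CPM), are both WT. The part of region content in the difference was not tested. In the cortex-marker class TG male 4 held 1.43 CPM against 4.32 and 5.41 CPM in WT. In the hindbrain-marker class TG held 24.5 and 16.5 CPM and WT 31.3 and 21.9 CPM, with overlap.

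Bcas1 did not follow Enpp6. In the olfactory-marker class it was 133.2, 100.7 and 84.9 CPM in TG female 2, TG male 1 and TG male 3, and 101.2, 36.4, 77.3 and 54.1 CPM in WT male 1, WT male 2, WT female 1 and WT female 4, a 1.67-fold difference with overlap. The uneven Neurod6 level of this class applies here too, and its part was not tested. In the hindbrain-marker class both TG values (683.6 and 693.8 CPM) lay above both WT values (540.1 and 533.8 CPM), a 1.28-fold difference. Olig2 was also wholly higher in TG there (1.31-fold), and 18.7% of all tested genes were so with 2 libraries a side. In the cortex-marker class Bcas1 was 101.7 CPM in TG male 4, between its WT values of 91.1 and 126.4 CPM. The other 8 genes overlapped between TG and WT in the olfactory-marker class.

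The single TG library of the cortex-marker class was lower for most lineage genes. TG male 4 lay below both WT libraries for 8 of the 10 genes, all but C1ql1 and Bcas1, and 37.3% of all tested genes were lower there in this way. It also lay below both for 31 of 32 myelin genes, with a median log2 difference of -0.87, against -0.04 for the myelin list in the olfactory-marker class and -0.26 in the hindbrain-marker class. The difference was negative for 30 of the 32 in the hindbrain-marker class, where 48.9% of all tested genes were positive. It was negative for 18 in the olfactory-marker class, where 52.3% were positive. The members' median was -0.41 in the cortex-marker comparison of 1 library with 2, and 0.02 in each of the other classes. Markers of other cells also differed in TG male 4: the 6 neuron markers summed to 10526.8 CPM (8254.8 and 8808.4 CPM in WT), with 4 wholly higher. The 4 endothelial markers were all wholly higher, summing to 131.7 CPM (92.5 and 100.9 CPM in WT). Of 7 pericyte markers 5 were wholly higher and 1 wholly lower. For 6 microglia markers these counts were 0 and 3, and for 7 astrocyte markers 1 and 1. With 1 library against 2, many genes lie wholly to one side, and the share of all tested genes wholly higher is not given here. The 4 olfactory bulb markers summed to 1.38 CPM (1.91 and 18.0 CPM in WT), with 2 wholly lower. No marker of these lists was at 0 in this class, and their part in the lineage gene levels was not tested.

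Relative to myelin genes, Bcas1 separated TG from WT in all 15 libraries, a measure chosen after its values were seen. The ratio of Bcas1 to Mbp was 0.0568 and 0.0655 in hindbrain-marker TG libraries against 0.0446 and 0.0408 in WT, and 0.0734 in the cortex-marker TG library against 0.0389 and 0.0433. It was 0.0777 to 0.0795 in olfactory-marker TG libraries against 0.0388 to 0.0549 in WT, and 0.0759 in TG female 3. Of 17151 tested genes, 3 (0.0175%) were wholly higher in TG by this ratio. Against the mean log2 CPM of the 32 myelin genes, Bcas1 lay 1.78 to 2.17 above in TG and 0.60 to 1.48 above in WT, again 1 of 3 genes (0.0175%). The other 9 genes overlapped between TG and WT on both measures. The ratio of Bcas1 to Enpp6, both genes of the newly formed stage, was 27.9 to 71.0 in TG and 12.7 to 24.3 in WT, where 5 genes (0.0292%) were wholly higher relative to Enpp6. These counts are over a ratio picked for its separation and carry no test.

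**Figure D4:**
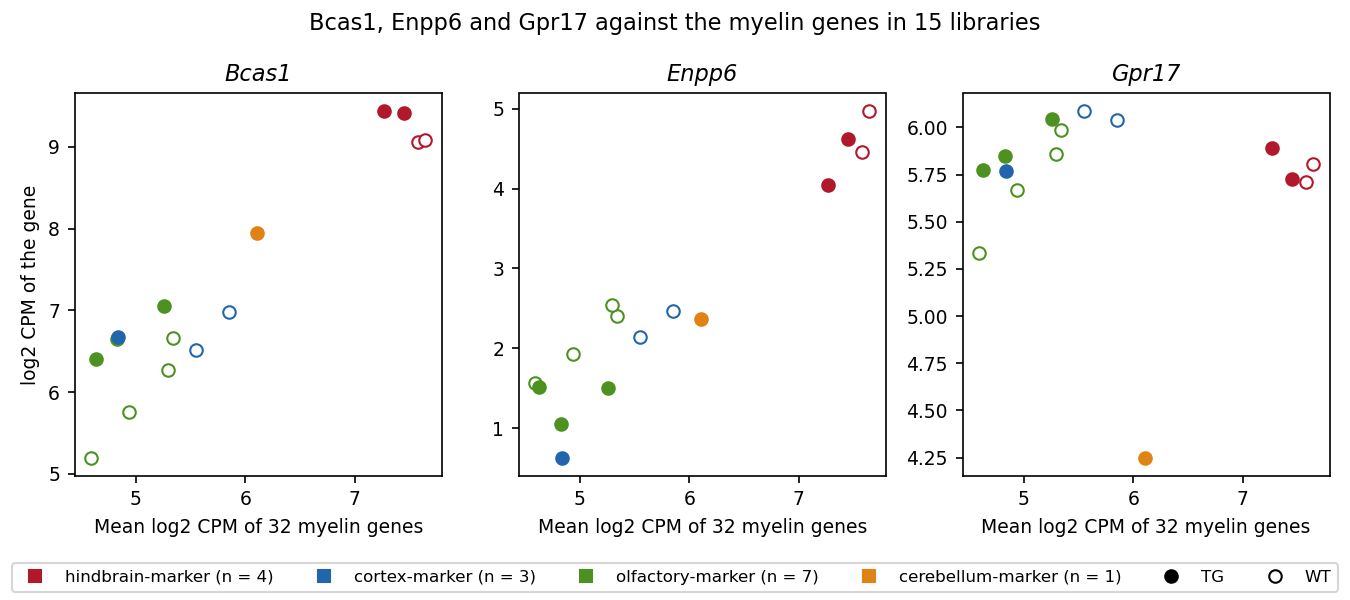
log2 CPM of Bcas1, Enpp6 and Gpr17 against the mean log2 CPM of 32 myelin genes in each library, filled for TG and open for WT and coloured by class. At a given myelin level the TG libraries lie higher for Bcas1 (1.78 to 2.17 above the myelin mean, against 0.60 to 1.48 in WT), while Gpr17 lies at similar heights in the hindbrain-marker and olfactory-marker libraries despite their different myelin levels, and TG female 3 stands alone at 18.9 CPM.

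The wider lists held no called precursor gene. With the class term, 0 of 26 further precursor genes passed in edgeR and 0 in DESeq2, with 1 at an unadjusted p under 0.05, and the median log2 fold change was -0.03 beside 0.00 over all genes tested. The genes of smallest p were Xylt1, a proteoglycan xylosyltransferase, at -0.32 ± 0.15, and Dscam, a cell adhesion molecule, at 0.14 ± 0.07. Of 24 newly formed oligodendrocyte genes 0 passed in either tool and 3 had an unadjusted p under 0.05, led by 9630013A20Rik, a long non-coding RNA, at 0.80 ± 0.23 and Epn2 at -0.14 ± 0.04. Their adjusted p was 0.272 and 0.342 by edgeR's quasi-likelihood test (Benjamini-Hochberg). Of 12 lineage transcription factors 0 passed in either tool and 1 had an unadjusted p under 0.05, Zfp488 at 0.39 ± 0.14, followed by Nkx2-2 at -0.27 ± 0.17. Both genes are also in the newly formed list, so the counts of these lists are not separate. Of the 8 proliferation genes tested 0 passed in either tool and 0 had an unadjusted p under 0.05 in edgeR, and those of smallest p were Ccna2 (-0.18 ± 0.13) and Pcna (0.06 ± 0.06).

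Among the 32 mature myelin genes, 2 fell with the class term in edgeR, where 0.496% of all tested genes passed. In that fit 10 of the 32 had an unadjusted p under 0.05, beside 8.4% of all tested genes. The count called depended on the setting. DESeq2 called 4 lower, where it called 1.02% of all genes. With classes formed from list means 1 was called. Without the 5 hindbrain-marker and cerebellum-marker libraries 0 were called, and 4 had an unadjusted p under 0.05. Anln fell by 0.95 ± 0.14 on the log2 scale and Klk6, a secreted protease of oligodendrocytes, fell by 1.07 ± 0.19, with an adjusted p of 0.00622 and 0.0256 by edgeR's quasi-likelihood test (Benjamini-Hochberg). Of the 32 genes, 28 had a negative log2 fold change, with a median of -0.26, and among the 10 precursor and early genes 6 were negative, with a median of -0.12. Over all tested genes 50.4% were positive. Whether the lists differ from one another in this was not tested.

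By sex, 0 of the 10 genes passed between females and males in edgeR, where 7 of 17151 genes did (0.0408%), and 0 of the 10 had an unadjusted p under 0.05 (2.19% of all genes had). None passed for the genotype-by-sex interaction in edgeR, where 0 genes passed over the whole table and 698 (4.07%) had an unadjusted p under 0.05. C1ql1 was the 1 member at an unadjusted p under 0.05 for the interaction, at 2.86 ± 1.27 on the log2 scale with an adjusted p of 0.724 by edgeR's quasi-likelihood test (Benjamini-Hochberg). The interaction and the region classes overlap, since 2 of 4 TG females and 0 of 3 TG males were hindbrain-marker libraries, and the 32 myelin genes had a median interaction of 1.85. With the class term that median was 0.41 and the members' median 0.27, and 0 genes passed. All 10 members were then positive, where 47.6% of all tested genes were. Of the 10, 2 had an unadjusted p under 0.05 in edgeR, as had 2143 of 17151 genes. Between the sexes with the class term 1 of the 10 had, as had 947 genes.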

How the data were processed

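RNA was measured in 15 libraries. The authors deposited raw read counts for each gene as whole numbers. The submitters' processing notes name STAR 2.7.5b, GRCm38, featureCounts and Subread, without roles. The strand setting of the counting is not given in the sources used here. Per the labels, 250 ng of total RNA entered a stranded kit that depletes ribosomal RNA, although the molecule field names polyA RNA. Of 27179 NCBI gene IDs, 25275 were named through RefSeq and 18 through GENCODE, and 1886 had no symbol. No libraries of a group agreed within sampling noise (lowest chi-square per gene 6.03).

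Counts were fitted with edgeR 4.0.16 in R 4.3.3 (filterByExpr over the 4 genotype-by-sex groups, TMM, robust quasi-likelihood test, Benjamini-Hochberg adjustment over 17151 genes, threshold 0.05). Genotype was fitted with sex as a covariate, and again with library class. The SE given for edgeR is the absolute log2 fold change divided by the square root of the test's F. The SE given for DESeq2 is that tool's own estimate. CPM use TMM-scaled library sizes, log2 CPM a prior count of 2, and CPM per kb the merged GENCODE exon length. Classes came from Ward clustering of log2 CPM of region marker genes into 4. Alternatives were DESeq2 1.42.0, voom of limma 3.58.1, other scalings and filters, other covariates, subsets of libraries and each library left out. The fit was tested on simulated counts. Limits of detection cover counting error only.

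The members and lists were chosen with earlier results of these data known. All 10 members were named; of each wider list, genes past the threshold, or else the 2 of smallest p with the class term; and for each member the 3 named genes, predicted genes left out, of highest class-centred r. Results for some genes of the lists are not reported here.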

Additional observations from a re-analysis of the deposited data

Results flagged for a closer look

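Within groups of 4 libraries of the same genotype and sex, the highest or lowest library was compared with the rest by its gap over the group's range. Of 33 such tests 3 stood out, and chance flags about 1 in 20. Olig1 was at a log2 CPM of 8.23 in WT female 3, far above the other WT females, and Neu4 was at 4.42 in the same library. C1ql1 was at a log2 CPM of 6.62 in WT male 3. Each of these libraries is the only hindbrain-marker library of its group. C1ql1 in WT male 3 (98.4 CPM) also lay above the other 3 hindbrain-marker libraries, at 28.8 to 42.7 CPM.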

How the results depend on the processing

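No member passed the threshold for genotype, sex or their interaction under the alternatives run, except that DESeq2 with the class term called 1 member, Enpp6. Enpp6 stayed negative with the class term in all 26 alternatives (-0.97 to -0.64 on the log2 scale) and Bcas1 stayed positive (0.32 to 0.57), as did the signs of Pdgfra, Cspg4, Vcan and Olig1. Taken relative to the myelin list, the hindbrain-marker minus olfactory-marker differences became -2.25 for Pdgfra, -2.19 for Cspg4, -2.27 for Vcan, -2.50 for Gpr17, -1.24 for Olig1, -1.17 for Olig2, -1.80 for Neu4, -0.38 for C1ql1, 0.24 for Enpp6 and 0.46 for Bcas1, since that measure subtracts the myelin difference.

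Without the class term the sign of 7 members turned under some settings, and the cause was not tested. Without the 5 hindbrain-marker and cerebellum-marker libraries Gpr17 was 0.030, Olig2 -0.030, Neu4 0.076 and C1ql1 0.10, and with olfactory-marker libraries only Gpr17 was 0.17, Neu4 0.20 and C1ql1 0.18. Without the sex covariate Olig1 was 0.018. In females alone Olig1 was 0.32, Neu4 0.063, C1ql1 0.89 and Enpp6 0.07, and in males alone Olig2 was -0.54 and Bcas1 -0.996. With each library left out in turn Gpr17 ran from -0.20 to 0.018, Olig1 from -0.23 to 0.11, Olig2 from -0.078 to 0.27, Neu4 from -0.14 to 0.048, C1ql1 from -0.66 to 0.40 and Bcas1 from -0.083 to 0.79. With the class term Gpr17 ran from -0.016 to 0.12, Neu4 from -0.062 to 0.079 and C1ql1 from -0.39 to 0.13 with 1 library left out, and Olig2 was -0.012 without the 5 libraries. C1ql1 turned without WT male 3 in both fits.

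Counts of all genes called moved by over 1.5 times in some settings. Without the class term they were 40 in DESeq2, 7 without the 5 libraries, 46 in olfactory-marker libraries only, and 1 in each sex alone, against 19. With it they were 175 in DESeq2, 41 without the 5 libraries, 43 with classes formed from list means (an alternative chosen after seeing the data, which moves 2 libraries to the cortex-marker class) and 56 without TG male 4, against 85. Between the sexes 12 were called with the class term, against 7.

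Samples share replicate numbers across groups, and of 21 same-numbered pairs 7 had a correlation of deviations over 0.1 (range -0.63 to 0.92). Region content enters these deviations, so they cannot show whether the numbers stand for more than a label. With the replicate number as a block 16 genes were called without and 53 with the class term, with 0 members in either, and C1ql1 was 0.12 without the class term. Depth limits Enpp6 most, with 25 to 99 counts per library outside the hindbrain-marker class.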

Other observations

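The genes wholly higher in TG relative to Mbp were Bcas1, at a mean of 240.4 CPM, and the predicted genes Gm15446 (6.06 CPM) and Gm5535 (2.01 CPM), and the same 3 were wholly higher relative to the myelin list mean. Relative to Enpp6 the 5 genes were these 3 with 1700040D17Rik (9.15 CPM) and Sema3b, a secreted semaphorin. These genes were named after their values were seen.

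TG female 3 was the library of lowest Gpr17 and Pdgfra, and also of lowest Cspg4, at 16.7 CPM. Its Neu4, at 8.6 CPM, lay just above the lowest, 8.57 CPM in WT male 2. For the remaining members other libraries were lower. The 6 microglia markers of TG female 3 summed to 137.7 CPM, below the 236.3 to 295.9 CPM of the other 14 libraries, while its 7 astrocyte markers summed to 3477.4 CPM, within the 3044.6 to 6282.4 CPM of the rest. Its 26 further precursor genes summed to 1350.1 CPM, below 1372.2 CPM, the lowest of the others. The cerebellum-marker class and this library cannot be told apart.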
